A study of Gallus gallus with 9 samples.

Results

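Glutathione transferases, fatty acid binding proteins and the phospholipase gene PLA2G10L were followed in the chick olfactory placode, the patch of thickened head ectoderm that gives rise to the olfactory epithelium and to neurons producing gonadotropin-releasing hormone (GnRH). The 9 genes considered were GSTA4, GSTA3, GSTO1, GSTZ1, FABP3, FABP4, FABP5, FABP6 and PLA2G10L, and every chicken probe set that the platform annotation gives exactly 1 of these symbols was taken. This gave 14 of the 37693 chicken probe sets on the array, for 8 of the 13008 genes with such a probe set. No probe set carried the symbol GSTO1, and 1 probe set that carries GSTA3 together with a further symbol was left out. The genes were chosen by their family together with their measured changes on these same arrays, where GSTA4, FABP6 and PLA2G10L had been among the largest rises from HH16 to HH20, so the changes of the 8 genes are given as a description, without p-values.

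Dissected placodes were collected at HH16, HH18 and HH20, stages of the Hamburger and Hamilton (HH) series of chick development, with 3 biological replicates per stage and 1 Affymetrix chicken array per replicate. No treatment other than dissection and no genetic change is given for any group, so the stages differ by embryonic age alone as far as the labels say. The labels give neither a strain nor the number of embryos behind a replicate.

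Glutathione transferases join the tripeptide glutathione to reactive, fat-soluble molecules, which makes these easier to export from the cell. In the mature olfactory mucosa of mammals, such enzymes are known from the supporting cells and glands, where they act on inhaled chemicals. Fatty acid binding proteins are small carriers that hold fatty acids, bile acids or related lipids in a barrel-shaped pocket and move them through the cytosol. Secreted phospholipases A2 release fatty acids from membrane phospholipids.

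Levels are given as log2(intensity + 16) after quantile normalization between the 9 arrays, so a log2 change understates the change of a dim gene. Background on an array was set at the 99th percentile of its virus probe sets, which lay between intensities of 6.17 and 13.9. The 2% trimmed mean intensity ranged from 68.7 to 163 between arrays, the latter on HH16 replicate 1. The number of arrays limits the precision. Of the 11 placode marker genes on the array, including the transcription factor genes DLX5, PAX6 and SP8, 10 were above background on all 9 arrays. In dissected tissue, fewer cells of a type and less RNA per cell cannot be told apart.

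Of the 14 probe sets, 7 passed the filter on low values, 1 each for GSTA4, GSTA3, GSTZ1, FABP3, FABP5, FABP6 and PLA2G10L. The other 7 were above background on none of the 9 arrays. From HH16 to HH20, 5 of the 7 tested probe sets passed limma's test at an adjusted p of 0.05, 4 of them higher and 1 lower, where 10.9% of the 24489 tested probe sets passed, 5.81% higher and 5.1% lower. From HH16 to HH18, 3 passed, all higher, against 4.54% of all tested probe sets, 2.31% being higher. From HH18 to HH20, 3 passed, all higher, against 0.359%, with 0.253% being higher. On the values as deposited, with no normalization, these counts were 4, 0 and 1. The shares of all tested probe sets under that setting are not given here, so the lower counts say nothing particular to these genes. Since the genes were chosen with these results known, nothing is read from these shares. The groups of normalized levels did not overlap for 5 of the 7 between HH16 and HH20, where this held for 30.5% of all tested probe sets. The same counts were 5 of 7 (21.5%) between HH16 and HH18 and 3 of 7 (15.1%) between HH18 and HH20. PLA2G10L is in each count, passing or not overlapping, that sets HH20 against HH16 or HH18. Its 3 HH20 arrays, where it is high, were enough for it to pass the filter on low values. Nothing is read from these counts either.

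**Figure D1:**
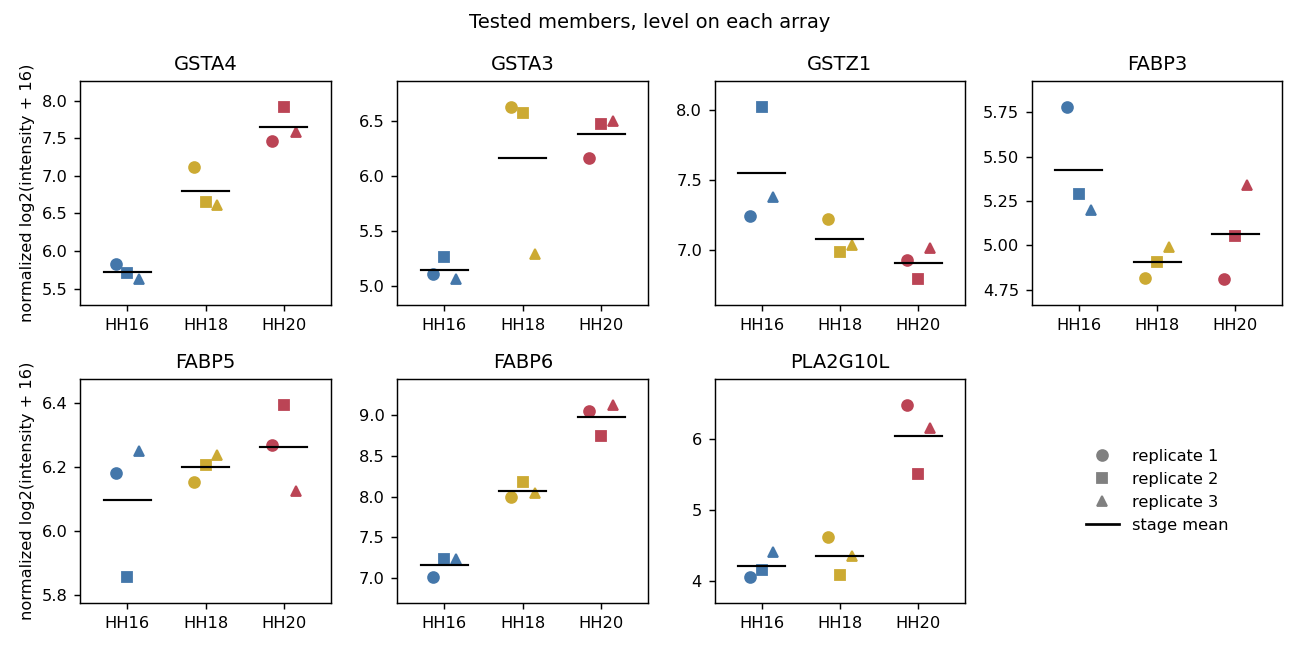
Level of the 7 tested members on each array, as normalized log2(intensity + 16), with 3 arrays per stage (marker shape gives the replicate) and a line at the stage mean. GSTA4 and FABP6 form 3 separate steps, PLA2G10L stands apart at HH20 only, and GSTA3 on HH18 replicate 3 lies with the HH16 arrays.

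GSTA4 encodes an alpha class glutathione transferase, a class that in mammals acts on products of lipid peroxidation. Its level was 5.82, 5.70 and 5.62 on HH16 replicates 1 to 3. It was 7.12, 6.65 and 6.61 on the HH18 replicates. It was 7.46, 7.92 and 7.59 on the HH20 replicates. On these normalized levels, every HH18 array lay above every HH16 array, and every HH20 array lay above every HH18 array. As deposited, HH16 and HH18 overlapped, with intensities of 75.8 on HH16 replicate 1 and 61.1 on HH18 replicate 3. The stage means were 5.72 ± 0.10 (SD, n = 3), 6.79 ± 0.28 and 7.66 ± 0.23. The log2 change from HH16 to HH20 was 1.94 ± 0.16 (SE), a 3.84-fold higher level. It was made up of 1.08 ± 0.16 in the earlier step and 0.86 ± 0.16 in the later one.

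The later step of GSTA4 was close to the threshold. It did not pass without HH18 replicate 2, HH18 replicate 3 or any 1 of the 3 HH20 replicates, where its log2 change lay between 0.73 and 0.95. It did not pass as deposited, without the filter on low values or without an intensity trend either, and was lost in 9 of 22 alternatives. The earlier step passed with each array left out, but not as deposited (0.72) or with arrays centred on their medians (0.80), and was 0.67 with a constant of 64 in place of 16 added before the logarithm.

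GSTA3 encodes a further alpha class transferase. RefSeq lists GSTA3 among the older symbols of GSTA4, so the symbols have been used for both genes. The level of GSTA3 was 5.11, 5.26 and 5.06 on the HH16 replicates. It was 6.63, 6.57 and 5.29 on the HH18 replicates and 6.16, 6.47 and 6.50 on the HH20 replicates. On these normalized levels, HH18 replicates 1 and 2 lay above all HH20 arrays, whereas HH18 replicate 3 was just above the highest HH16 array. As deposited, HH16 and HH18 overlapped, with intensities of 33.6 on HH16 replicate 1 and 17.1 on HH18 replicate 3. HH18 replicates 1 and 2 did not lie above HH20 as deposited, at 65 and 74.6 against 75.1, 72.1 and 67.4. The stage means were 5.15 ± 0.10 (SD, n = 3), 6.16 ± 0.76 and 6.38 ± 0.19. The log2 change was 1.23 ± 0.25 (SE) from HH16 to HH20, or 2.34-fold, with 1.01 ± 0.25 in the earlier step and 0.21 ± 0.25 in the later one.

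With a constant of 64 in place of 16, the changes of GSTA3 were 0.66 from HH16 to HH20 and 0.55 in the earlier step. HH18 replicate 3 decided the course of GSTA3 between the stages. Without this array the earlier change was 1.47 and the later one -0.22, against 0.21 ± 0.25 (SE) for the later one with all arrays. The later change thus took the other sign, but it passed neither with nor without this array. The later step minus the earlier one was -0.80 ± 0.44 with all arrays, which did not pass, and -1.69 without HH18 replicate 3. That array was singled out after its values were seen, so nothing is read from the larger difference. With all arrays, 0 of the 7 tested members passed limma's test for a difference between the steps, 2 of them at an unadjusted p of 0.05, and 0.0327% of all tested probe sets passed. The earlier change of GSTA3 passed in 11 of 21 alternatives. It did not pass when any 1 HH16 replicate, HH18 replicate 1 or HH18 replicate 2 was left out, with values between 0.79 and 1.08. The probe set of GSTA3 is of a kind designed against several transcripts, and the part of other alpha class genes in its values was not tested.

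HH18 replicate 3 also stood apart in markers of other cell types. The summed normalized intensity of 9 erythrocyte genes was 1310 on this array, against 3444 and 4068 on HH18 replicates 1 and 2. The sum of 16 blood vessel genes was 551 against 874 and 912, and that of 16 mesenchymal genes was 3913 against 5028 and 5048. The sum of 14 macrophage and leukocyte genes was 286 against 448 and 375. The sum of 15 neuronal genes did not set the array apart, at 2797 against 2683 and 2802. The globin genes weigh most in the erythrocyte sums, and SLC4A1, TAL1 and EPB42 were above background on none of the 9 arrays. Of the 16 blood vessel genes, 6 were above background on all 9 arrays. The brightest of these genes at HH18 was FLI1, with deposited intensities of 258.4, 298.4 and 126.7 on replicates 1 to 3. Across stages, erythrocyte sums ranged from 1516 to 3141 at HH16, from 1310 to 4068 at HH18 and from 3240 to 3969 at HH20. HH16 replicate 3 had an erythrocyte sum of 3141 and a GSTA3 level of 5.06, the lowest GSTA3 level of the 9 arrays. Blood vessel sums ranged from 403 to 601 at HH16, from 551 to 912 at HH18 and from 795 to 842 at HH20. Mesenchymal sums ranged from 3500 to 3826, from 3913 to 5048 and from 4424 to 4987. The part of these cell types in the GSTA3 values was not tested.

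**Figure D2:**
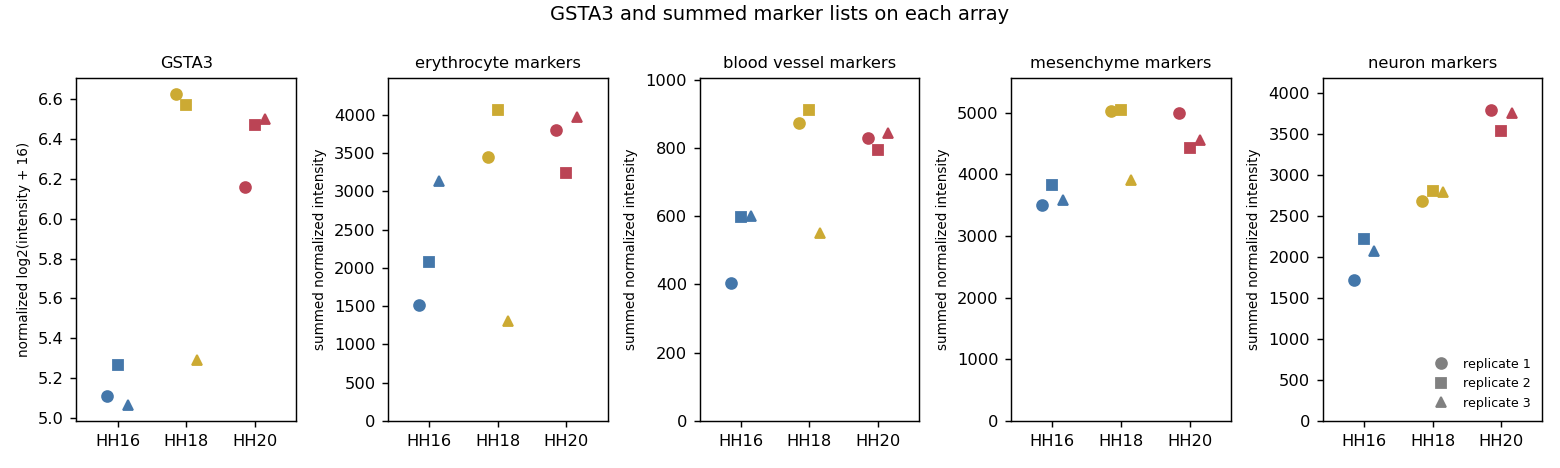
GSTA3 level (left, normalized log2(intensity + 16)) beside the summed normalized intensity of 4 marker lists on each of the 9 arrays. HH18 replicate 3, the triangle at HH18, is low in GSTA3 and in the erythrocyte, blood vessel and mesenchyme sums, and lies with the other HH18 arrays in the neuron sum.

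In the RefSeq order of protein-coding genes (assembly GRCg7b), GSTA4 and GSTA3 stand next to each other, with LOC396380 (older symbol GSTAL3) before them and LOC100859645, LOC395611 and GSTA2 after them. This neighbourhood was looked at after the values of the members were known. LOC395611 rose from HH16 to HH20 by a log2 change of 0.83 ± 0.14 (SE, limma adjusted p = 0.0011). LOC396380, at 0.14 ± 0.12, did not pass (adjusted p = 0.5). GSTA2, which encodes an alpha class transferase, had a change of 0.22 ± 0.09 and did not pass either (adjusted p = 0.15). LOC100859645 had no probe set of its own. The measured changes were thus unequal along the row, from 1.94 for GSTA4 to 0.14 for LOC396380. The probe sets of GSTA3 and GSTA2 are of the kind designed against several transcripts, and the part of other genes in their values was not tested.

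**Figure D3:**
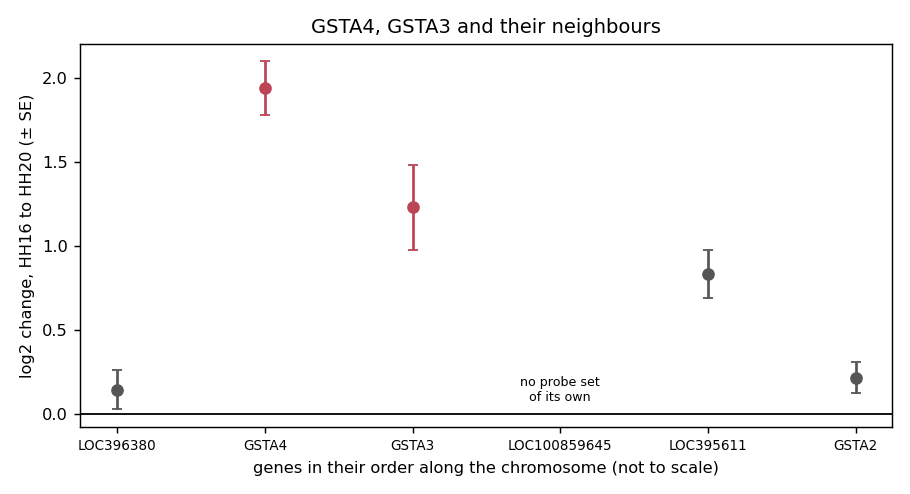
Log2 change from HH16 to HH20 (± SE of the fit) of GSTA4, GSTA3 and the genes beside them, in their order along the chromosome. GSTA4 (1.94), GSTA3 (1.23) and LOC395611 (0.83) lie well above 0, LOC396380 (0.14) and GSTA2 (0.22) near it.

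GSTZ1 encodes a zeta class transferase that isomerizes maleylacetoacetate, a late step in the breakdown of phenylalanine and tyrosine. Its level was 7.24, 8.02 and 7.37 on the HH16 replicates. It was 7.22, 6.98 and 7.03 at HH18 and 6.93, 6.79 and 7.01 at HH20. On the normalized levels, all HH16 arrays lay above all arrays of the later stages, while HH18 and HH20 overlapped. HH16 replicate 2 was far above the rest, and HH16 replicate 1 (7.24) was only just above HH18 replicate 1 (7.22). As deposited, HH16 and HH20 overlapped, with intensities of 122.9 on HH16 replicate 3 and 145.3 on HH20 replicate 1. The stage means were 7.55 ± 0.42 (SD, n = 3), 7.08 ± 0.12 and 6.91 ± 0.11. The log2 change from HH16 to HH20 was -0.64 ± 0.17 (SE), with -0.47 ± 0.17 in the earlier step, which did not pass. Without HH16 replicate 2 the earlier step was -0.23 and the change over the whole period was -0.40, which did not pass. The latter did not pass without HH20 replicate 1 or HH20 replicate 2, as deposited or with arrays centred on their medians. Of the other 4 tested genes of tyrosine and phenylalanine breakdown, HPD, FAH, PCBD1 and QDPR, 0 passed limma's test from HH16 to HH20, and 1 did so at an unadjusted p of 0.05. Their median log2 change was -0.30, against 0.00 over all genes.

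RefSeq lists GSTO1 as an older symbol of GSTO2, the omega class transferase that the annotation names on this array. GSTO2 was chosen after its values were seen. Of its 3 probe sets, 2 fell from HH16 to HH20, by log2 changes of -0.44 ± 0.10 (SE, adjusted p = 0.0086) and -0.45 ± 0.11 (adjusted p = 0.015). The other probe set had a change of -0.35 ± 0.16 and did not pass (adjusted p = 0.19).

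FABP6, also called gastrotropin, is the bile acid carrier of the small intestine in mammals. Its bright probe set had levels of 7.01, 7.24 and 7.24 on the HH16 replicates. The levels were 8.0, 8.17 and 8.05 at HH18 and 9.04, 8.74 and 9.13 at HH20. On the normalized levels, the 3 stages did not overlap. As deposited, HH16 and HH18 overlapped, with intensities of 214.8 on HH16 replicate 1 and 187.6 on HH18 replicate 1. The stage means were 7.16 ± 0.13 (SD, n = 3), 8.07 ± 0.09 and 8.97 ± 0.20. The log2 change from HH16 to HH20 was 1.81 ± 0.12 (SE), or 3.50-fold. The steps were alike in size, at 0.91 ± 0.12 and 0.90 ± 0.12, and their difference was -0.01 ± 0.21. As deposited, with no normalization, the steps were 0.50 and 1.23, and on that scale the median change over the tested probe sets was -0.25 and 0.22. Neither step passed as deposited, and with arrays centred on their medians the earlier step was 0.59 and did not pass.

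Of the 4 probe sets of FABP6, this was the only one above background on any array. The other 3 had deposited intensities between 0.20 and 12.4, the highest on HH18 replicate 2, whose background level was 13.9. The bright probe set is of a kind that matches several transcripts of the same gene. Of the 3 probe sets of PLA2G10L and the 2 of FABP5, likewise 1 each rose above background, and the others stayed between 0.10 and 4.4 and between 0.20 and 2.5. The changes described for these 3 genes therefore rest on 1 probe set each.

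**Figure D4:**
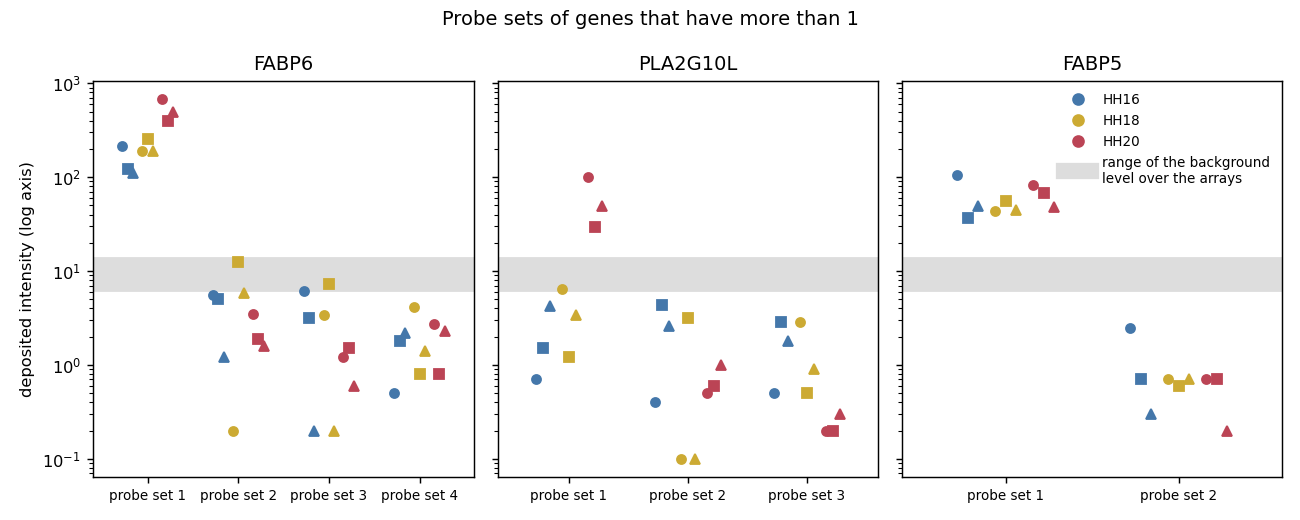
Deposited intensity (log axis) of every probe set of FABP6, PLA2G10L and FABP5 on the 9 arrays, with the range of the background level over the arrays in grey (6.17 to 13.9). In each gene 1 probe set reached values above the band, and the others lay in or below it at all 3 stages.

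GSTA4 and FABP6 stepped up at both stages, as did the summed level of the neuronal genes. Neuronal sums ranged from 1721 to 2219 at HH16, from 2683 to 2802 at HH18 and from 3542 to 3799 at HH20. Of the 14 tested neuronal genes, 12 rose from HH16 to HH20, where 7.13% of all tested genes rose. The sums of 14 genes of surface and nasal epithelium also rose without overlap. They ranged from 6437 to 7084 at HH16, 7379 to 7640 at HH18 and 7721 to 8139 at HH20. EPCAM (log2 change 0.00 from HH16 to HH20) and CLDN1 (0.21) were the brightest of this list and weigh most in its sums. Of its 13 tested members, 4 rose, against the same 7.13%, with the largest changes in PKP2 (1.35) and KRT14 (1.33). The part of either tissue in the values of GSTA4 and FABP6 was not tested.

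FABP3 encodes the fatty acid carrier of heart and skeletal muscle. Its level was 5.78, 5.29 and 5.20 on the HH16 replicates. It was 4.81, 4.91 and 4.99 at HH18 and 4.81, 5.05 and 5.34 at HH20. The HH16 arrays lay above all HH18 arrays, and HH20 overlapped with both. The log2 change was -0.52 ± 0.17 (SE) from HH16 to HH18 and -0.36 ± 0.17 from HH16 to HH20, and neither passed. Without HH16 replicate 1 these changes were -0.32 and -0.17, and without HH20 replicate 1 the change from HH16 to HH20 was -0.22. The summed level of 13 muscle genes was 838 to 941 at HH16, 455 to 567 at HH18 and 417 to 476 at HH20. Of 8 tested muscle genes, 3 fell from HH16 to HH20, where 6.82% of all tested genes fell. They were the troponin gene TNNC1 (log2 change -1.16), the myosin gene MYH7 (-1.05) and CSRP3, a LIM protein of muscle (-1.47). The other 5 did not pass, and of these MYF6 (0.27), MYL1 (0.26) and TNNT2 (0.08) had changes of the other sign. TNNC1 was the brightest of the list at HH16, with deposited intensities of 1134, 427 and 536, and weighs most in the sums. The muscle regulators MYOD1, MYF5 and MYOG were above background on none of the 9 arrays. MYF6, a further muscle regulator, had deposited intensities of 12.7, 7.1 and 0.8 on the HH16 replicates. Its intensities were 5.7, 16.8 and 8.7 on the HH18 replicates and 12, 9.7 and 9.5 on the HH20 replicates. MYF6 was above background on HH16 replicates 1 and 2, on HH18 replicates 2 and 3 and on all HH20 replicates. The part of muscle tissue in the FABP3 values was not tested.

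FABP5, the carrier of skin and other epithelia, had levels between 5.86 and 6.25 at HH16, between 6.15 and 6.24 at HH18 and between 6.12 and 6.40 at HH20. The 3 stages overlapped. The log2 change from HH16 to HH20 was 0.17 ± 0.14 (SE), which did not pass, and was 0.05 without HH16 replicate 2 and 0.10 without HH20 replicate 2. The change from HH16 to HH18 was 0.10 ± 0.14, and without HH16 replicate 2 it was -0.02. As deposited it was -0.23, where the median change over the tested probe sets was -0.25. The tested probe set of FABP5 is, like that of GSTA3, of the kind designed against several transcripts. FABP4, the carrier of adipocytes and macrophages, had deposited intensities between 0.40 and 4.1 and was above background on none of the 9 arrays, so its changes were not tested. In the RefSeq order FABP5 and FABP4 have FABP9 between them, and FABP9 was above background on no array either. Of the markers of macrophages and leukocytes, 2 of 14 were above background on all 9 arrays. MARCO, C1QA and CYBB were above it on none. Of the 11 tested markers, 2 rose from HH16 to HH20, CSF1R (log2 change 0.70) and CD74 (0.66), and 0 fell. Over all tested genes, 7.13% rose and 6.82% fell. The sums of the list ranged from 227 to 261 at HH16, from 286 to 448 at HH18 and from 392 to 413 at HH20.

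PLA2G10L encodes a protein related to the secreted group 10 phospholipase A2. Its deposited intensities were 0.7, 1.5 and 4.2 on the HH16 replicates and 6.4, 1.2 and 3.4 on the HH18 replicates. They were 100.3, 29.1 and 49.7 on the HH20 replicates. The probe set was above background on 0 of 3 arrays at HH16, on 1 of 3 at HH18 and on all 3 at HH20. Its normalized levels were 4.20 ± 0.19 (SD, n = 3), 4.34 ± 0.27 and 6.04 ± 0.50. Set against the background floor of the HH16 arrays, PLA2G10L was at least 2.80-fold higher at HH20. The bound compares the HH20 mean with the lowest level above background on each HH16 array. No fold is given against HH18, since HH18 replicates 2 and 3 were at background. The fitted log2 difference between HH18 and HH20 depended on the constant added before the logarithm, at 1.70 with 16, 2.74 with 4 and 0.76 with 64. The 3 HH20 arrays, where the probe set is high, were enough for it to pass the filter on low values, so its passing the test supports nothing.

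**Figure D5:**
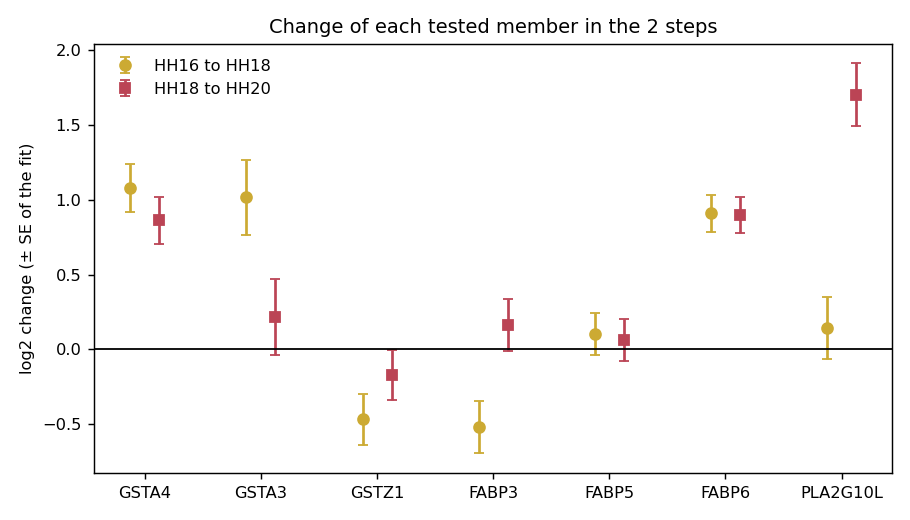
Log2 change (± SE of the fit) of the 7 tested members from HH16 to HH18 (circles) and from HH18 to HH20 (squares). FABP6 has steps of 0.91 and 0.90. PLA2G10L was at background on 5 of the 6 arrays before HH20, so the sizes of its fitted steps are not measured changes. GSTA3 has its larger step first, and its later step, which did not pass, changes sign without HH18 replicate 3.

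Among the 2468 other genes with an SD of at least 0.25 over the 9 arrays, the 2 whose profile was most like that of FABP6 were S100A1, a calcium-binding protein (Pearson r = 0.990 over 9 arrays), and STMN2, a microtubule regulator of neurons (r = 0.989). For GSTA4 they were TMEFF2, a transmembrane protein (r = 0.979), and LOC415787 (r = 0.973). For GSTA3 they were HIVEP2, a zinc finger factor (r = 0.959), and the collagen gene COL6A3 (r = 0.957). For GSTZ1 they were the kinase gene LIMK1 (r = 0.958) and PTK7, a receptor-like protein of the WNT pathway (r = 0.935). For PLA2G10L they were SH2D6 (r = 0.976) and NACAD (r = 0.962). PLA2G10L was above background on 0 of 3 arrays at HH16 and 1 of 3 at HH18. All its r values thus rest mainly on its higher levels at HH20. The 9 arrays share their stages, so r follows the stage means as well as the single arrays, and no test goes with it. Among the members, the highest r over the 9 arrays was 0.935, between GSTA4 and FABP6, and the lowest was -0.871, between GSTZ1 and FABP5. It was 0.867 between FABP6 and PLA2G10L and -0.751 between GSTA4 and GSTZ1. Of the 9 arrays, HH16 replicate 2 had the highest level of GSTZ1 (8.02) and the lowest of FABP5 (5.86). The weight of this array in the r between GSTZ1 and FABP5 was not tested, and the stages of FABP5 overlapped.

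The wider pathways around these genes were read from 9 lists, from which the members were left out. From HH16 to HH20, 20 of their 153 tested genes passed limma's test, 6 higher and 14 lower, which is 13.1% where 14% of all 10630 tested genes passed, 7.13% higher and 6.82% lower. From HH16 to HH18, 7 passed (4.58% against 5.89%), 1 higher and 6 lower, where 2.92% of all genes were higher and 2.97% lower. From HH18 to HH20, 0 passed, 19 did so at an unadjusted p of 0.05, and 0.47% of all genes passed. The count from HH16 to HH20 was 1 as deposited and 3 with arrays centred on their medians. It was 9 without HH16 replicate 2, 10 without HH16 replicate 3, 9 without HH20 replicate 1 and 13 without HH20 replicate 2 or without an intensity trend.

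Genes that make, recycle or use glutathione were lower where they passed. Of 22 tested genes, 4 fell from HH16 to HH20 and 18 did not pass, with a median log2 change of -0.12 against 0.00 over all genes. They were GSS, which completes glutathione (-0.49 ± 0.12, SE, adjusted p = 0.014), the peroxidases GPX1 (-0.48 ± 0.09, adjusted p = 0.0028) and GPX4 (-0.48 ± 0.09, adjusted p = 0.0031), and the glutaredoxin GLRX2 (-0.42 ± 0.10, adjusted p = 0.012). GPX1, GPX4 and GLRX2 had passed by HH18 (adjusted p = 0.018, 0.0047 and 0.02). GCLC and GCLM, the subunits of the enzyme that limits glutathione synthesis, had changes of 0.04 ± 0.10 and 0.06 ± 0.09, which did not pass (adjusted p = 0.87 and 0.74).

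Of 18 tested other transferases and relatives of their fold, 3 fell and 15 did not pass, with a median log2 change of -0.10. GSTM2, a mu class transferase, fell from a mean level of 6.62 ± 0.07 (SD, n = 3) to 6.08 ± 0.19 (log2 change -0.54 ± 0.15, SE, adjusted p = 0.028). CLIC5, a protein with a transferase-like fold, fell by 0.59 ± 0.17 (adjusted p = 0.028) and the prostaglandin E synthase PTGES2 fell by 0.32 ± 0.09 (adjusted p = 0.026). The microsomal transferases MGST1 (0.21 ± 0.08, adjusted p = 0.1) and MGST3 (-0.15 ± 0.09, adjusted p = 0.33) did not pass.

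In the list of the NRF2 system and antioxidant enzymes, 1 of 24 tested genes rose, 1 fell and 22 did not pass, with a median of 0.01. Catalase (CAT), which breaks down hydrogen peroxide, rose by 0.50 ± 0.10 (adjusted p = 0.0041). NFE2L2, which encodes the transcription factor NRF2 that turns on transferase genes under oxidative stress, fell by 0.33 ± 0.10 (adjusted p = 0.04). Of 19 tested other drug-metabolizing enzymes, 2 rose, 1 fell and 16 did not pass, with a median of 0.17. The aldehyde dehydrogenase ALDH2 rose from 9.13 ± 0.05 (SD, n = 3) to 9.85 ± 0.09 (log2 change 0.72 ± 0.08, SE, adjusted p = 2.2e-05). CYP1C1, a cytochrome P450, also passed upward (adjusted p = 0.047). It was above background on 2 of the 3 HH20 arrays and on none of the other 6. Its deposited intensities were 0.3 to 2.1 at HH16, 1.2 to 9.5 at HH18 and 6.5 to 8.8 at HH20. The call of CYP1C1 thus rests on values near background, and nothing is read from it. AKR1D1, a steroid reductase also used in making bile acids, fell from 7.16 ± 0.04 to 5.64 ± 0.12 (-1.52 ± 0.16, adjusted p = 1.3e-05).

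Among 11 tested other intracellular lipid carriers, 1 rose, 2 fell and 8 did not pass, with a median of -0.02. FABP7, the carrier of neural progenitors and glia and also a marker on the list of neural crest and glia, fell by 0.33 ± 0.08 (SE, adjusted p = 0.017), and CRABP1, which holds retinoic acid, fell by 0.59 ± 0.14 (adjusted p = 0.009). The sterol carrier SCP2 rose by 0.33 ± 0.09 (adjusted p = 0.029). FABP1 of liver was above background on none of the 9 arrays, and FABP2 of intestine on 2 of them, both at HH20. In the list of fatty acid uptake, activation and oxidation, 1 of 27 tested genes rose, 2 fell and 24 did not pass, with a median of -0.09. The dehydrogenase ACADL rose by 0.23 ± 0.07 (adjusted p = 0.036), and ACACA and ELOVL5, which build and lengthen fatty acids, fell by 0.46 ± 0.14 (adjusted p = 0.038) and 0.37 ± 0.11 (adjusted p = 0.039). SLC27A4, a fatty acid transporter, was lower at HH18 than at HH16 (-0.65 ± 0.18, adjusted p = 0.046) but not at HH20 (-0.17 ± 0.18, adjusted p = 0.63).

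FABP6 works with a set of bile acid genes in the intestine and liver. Of 12 such genes on the array, 6 were tested, and only AKR1D1 passed from HH16 to HH20. The bile acid receptor gene NR1H4, the ileal bile acid transporter gene SLC10A2, SLC51B, CYP7A1 and CYP7B1 were above background on none of 9 arrays. ABCB11, CYP27A1 and AKR1D1 were above it on all 9. NR0B2, CYP8B1, SLC51A and BAAT were above it on some arrays. For BAAT these were 2 of 3 at HH16, 0 of 3 at HH18 and all 3 at HH20. Of 23 tested genes of phospholipases A2 and eicosanoids, 1 rose, 1 fell and 21 did not pass, with a median of -0.06. The cyclooxygenase PTGS2 rose by 0.40 ± 0.10 (adjusted p = 0.018), and PLAA, an activator of phospholipase A2, fell by 0.53 ± 0.12 (adjusted p = 0.0071). PLA2G10, whose name PLA2G10L shares, had a change of -0.12 ± 0.22 and did not pass (adjusted p = 0.8), and the cytosolic phospholipase PLA2G4A had one of -0.08 ± 0.15 (adjusted p = 0.83).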

How the data were processed

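The deposited values are linear intensities, 1 for each probe set on each array, made with MAS5 per the submitters' processing notes. The MAS5 version and target are not given in the sources used here. The total signal differs between arrays. From the deposited intensities, log2(intensity + 16) of the 37693 chicken probe sets was quantile normalized between the 9 arrays, and probe sets above the 40th percentile of their array on at least 3 arrays were tested (24489). All arrays entered 1 limma 3.58.1 model in R 4.3.3 with a mean per stage and an intensity trend. Tests were two-sided, with p-values adjusted by the Benjamini-Hochberg method across the whole tested table and called at 0.05. They cover the spread between the 3 samples of a stage, which the labels call biological replicates without naming separate collections. A gene in a list was represented by its brightest tested probe set. The fit was tested on simulated data. Genes named from a list are up to 4 that passed in any stage comparison, largest change from HH16 to HH20 first, and others are named to give a role or an absence. Members, lists and tests were chosen with earlier results of these data known. Alternatives covered the pseudocount, filter, scaling, weights, replicate block, probe sets, variance prior and each array left out.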

Additional observations from a re-analysis of the deposited data

How the results depend on the processing

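The 11 called changes of members kept their direction in all 240 recomputed values and stayed past the threshold in 211. The genes were chosen for their changes on these arrays, and the alternatives reuse the same arrays, so these counts are not independent support. They include the called changes of PLA2G10L, whose HH20 arrays were enough for it to pass the filter. The 17 changes not called took the other sign in 23 of 361. As deposited, members called numbered 0 from HH16 to HH18 and 1 from HH18 to HH20, and 1 from HH16 to HH18 with arrays centred on their medians. Over single arrays left out, members differing between the steps numbered 0 to 1. List genes called from HH16 to HH20 numbered 1 as deposited, 3 median centred and 13 without an intensity trend (9 to 23 with single arrays left out). From HH16 to HH18 they numbered 1 as deposited, 2 without a trend and 3 without HH16 replicate 1 and HH18 replicate 2 together (3 to 8 with single arrays left out). From HH18 to HH20 they numbered 1 with the stricter filter, with array weights and when the probe sets of a gene were averaged (0 to 4 with single arrays left out), and 0 to 1 for the step difference. Counts for single lists moved beyond 1.5 times in 110 of 819 values, 85 lower and 25 higher. The causes were not tested. Same-numbered replicates did not deviate together (r of -0.13 to 0.06 over 9 pairs). With the replicate block, members called numbered 5, 3 and 3 in the 3 stage comparisons and list genes 15, 7 and 0. The shares of all tested probe sets that passed under the alternatives are not given here, so nothing is read from these counts. The bound of PLA2G10L depends by construction on how background was set, and 3 arrays per stage limit the precision of each change.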

Other observations

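Genes that flank the other members were read from the RefSeq order, 3 on each side, after the values were known. Beside GSTZ1, TMED8, a member of the TMED protein family, rose from HH16 to HH20 by a log2 change of 0.47 ± 0.11 (SE, limma adjusted p = 0.01), while POMT2, a mannosyltransferase next to GSTZ1, had a change of 0.01 ± 0.08 (adjusted p = 0.97). Near FABP3, NKAIN1, a membrane protein that interacts with the sodium pump, rose by 0.50 ± 0.13 (adjusted p = 0.021). The neighbours of FABP6, CCNJL (0.31 ± 0.13, adjusted p = 0.14) and PWWP2A (-0.22 ± 0.14, adjusted p = 0.35), did not pass. CLDND1, next to PLA2G10L, did not pass either (0.18 ± 0.11, adjusted p = 0.35).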
